A study of Mus musculus with 8 samples.

Results

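The potassium channel genes of the mouse retina were examined here apart from the family of the targeted gene. They are all genes of the count table whose symbol starts with Kcn, without the Kcnv, Kcnb, Kcnf, Kcng and Kcns genes and without Kcnj10 and Kcnq1ot1. This gave 73 genes of the 87 with a Kcn symbol and of the 26824 in the table. They encode pore-forming channel subunits, the accessory subunits that bind to them, and a few transcripts from the opposite strand of channel genes. RNA was sequenced from retinas of 3 mice with the genotype label WT and 5 mice labelled as knockouts of Kv8.2 (KO), the product of Kcnv2, all aged 1 month and untreated. Each library was made from total RNA of both retinas of 1 mouse, and the libraries are numbered WT 1 to WT 3 and KO 2 to KO 6. The labels give no strain, sex or description of the allele, and nothing that the groups carry in common. According to the series text the authors left out 2 KO samples, which it does not name, so all 8 libraries were used here. The question is whether the other potassium channels of the retina were expressed at another level in the retinas labelled KO.

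Potassium channels set the resting potential of neurons and glia and end their depolarization. Voltage-gated (Kv) channels are tetramers of pore-forming subunits that open on depolarization, and many carry beta, KChIP or KCNE subunits that set their gating and their transport to the membrane. Inward rectifiers and tandem-pore channels hold the membrane near the potassium equilibrium, and the BK and SK channels are opened by calcium. In rods and cones the outward current of the inner segment sets the dark potential, and Kv8.2 is a silent subunit that takes part in it only together with Kv2 subunits.

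The promoters of the genes that passed the test below are shown because they hold the annotated starts of these transcripts. The RefSeq promoter table (GRCm38.p6) held 53 of the 73 genes, each with 250 bases before and 50 bases after the annotated start. Capitals mark a match, on either strand, to a core motif of a photoreceptor factor, TAATCC for the homeobox factor CRX or TGCTGA for the core of the Maf response element to which the rod factor NRL binds. The promoter of Kcnc1, the gene of the Kv3.1 subunit, lies at chr7:46396218-46396517 on the plus strand.
Kcnc1: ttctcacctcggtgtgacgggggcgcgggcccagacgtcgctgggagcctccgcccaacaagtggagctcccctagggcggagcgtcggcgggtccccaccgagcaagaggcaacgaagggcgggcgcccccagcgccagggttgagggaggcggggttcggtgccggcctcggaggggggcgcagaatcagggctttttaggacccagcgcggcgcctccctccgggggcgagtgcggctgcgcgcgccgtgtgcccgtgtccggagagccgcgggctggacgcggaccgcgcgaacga
One of the 3 starts listed for Kcnab2, the gene of the Kvβ2 subunit, lies in chr4:152477500-152477799 on the minus strand.
Kcnab2: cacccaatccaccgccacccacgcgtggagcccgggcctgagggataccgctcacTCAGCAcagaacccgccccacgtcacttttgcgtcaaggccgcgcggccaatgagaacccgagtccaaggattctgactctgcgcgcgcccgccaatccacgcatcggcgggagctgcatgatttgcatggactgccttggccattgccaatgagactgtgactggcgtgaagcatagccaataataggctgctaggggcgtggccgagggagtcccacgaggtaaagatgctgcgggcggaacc
For Kcne2, the gene of an accessory subunit of the KCNE family, one of 2 listed starts lies in chr16:92292139-92292438 on the plus strand.
Kcne2: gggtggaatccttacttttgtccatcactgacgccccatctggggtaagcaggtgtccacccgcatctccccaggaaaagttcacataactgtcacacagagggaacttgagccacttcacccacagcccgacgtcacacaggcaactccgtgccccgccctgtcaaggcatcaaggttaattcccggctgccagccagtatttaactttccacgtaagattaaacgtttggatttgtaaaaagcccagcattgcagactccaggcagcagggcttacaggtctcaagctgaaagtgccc
The fourth such gene, Kcnk3, is named only.

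The promoter of Kcnc1 has a GC content of 74.7% with 41 CpG dinucleotides, against 62.7% and 25 for Kcnab2 and 53.0% and 9 for Kcne2. The median over all 32851 promoters of the table was 52.7%. In the Kcnab2 promoter TGCTGA matched once, on the strand opposite to the gene, with its first base at position -195 from the start. Neither motif occurred in the windows of Kcnc1 and Kcne2. TAATCC occurs in 7.1% and TGCTGA in 19.5% of all promoters of this length, so a match is a description of these letters and no evidence of binding.

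The libraries held 17759146 to 25188870 counts, and the 73 genes took 0.276% (WT 2, 95% Wilson interval 0.274% to 0.279%) to 0.354% (KO 6, 0.352% to 0.357%) of them. Kcnv2, whose level checks the labels, was present in every library, with 519, 551 and 526 CPM (counts scaled to a library total of 1e+06) for WT 1 to WT 3 and with 585, 447, 398, 409 and 409 CPM for KO 2 to KO 6. Its log2 fold change of -0.24 (SE 0.14) had an adjusted p of 0.275 in edgeR's quasi-likelihood test, so the count does not set the groups apart, and KO means here the libraries labelled KO. The gene-level count does not show whether the transcript is intact. KO 4 to KO 6 stood apart from KO 2 and KO 3. On the first principal component, with 39.5% of the variance, KO 4 to KO 6 scored 45.7 to 58.1 and all other libraries -40.2 to -11.9. The mitochondrial share of the counts was 7.09% to 7.92% for WT, 3.03% to 3.70% for KO 4 to KO 6 and between them for KO 2 (6.52%) and KO 3 (5.23%). Markers of the retinal cell types were present in all libraries, with rod markers summing to 36502 to 39367 CPM in WT and 31217 to 46960 CPM in KO. Cone markers summed to 662 to 891 CPM in WT and 419 to 569 CPM in KO, with 2 of 4 called lower, and the 4 microglia markers to 15.9 to 19.0 and 21.3 to 31.5 CPM, with 2 called higher. Lens markers summed to 29515 CPM in KO 3, to 13.1 to 918 CPM in WT and to 0.319 to 104 CPM in the other KO libraries. WT 3 differed from all other libraries in sex-linked transcripts. In bulk RNA, fewer cells of a type and less RNA per cell cannot be told apart. The results below are given for all 8 libraries and for each set of KO libraries.

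Of the 73 genes, 64 passed the filter on low counts and were tested. Those not tested were Kcne4, Kcnh3, Kcnj4, Kcnj16, Kcnmb1, Kcnmb3, Kcnmb4os1, Kcnn4 and Kcnq1, with 0 to 13 counts in any library. At the depth of the libraries 3 counts, taken as the floor of detection, equal 0.13 to 0.164 CPM. With no filter on low counts 0 of these 9 genes passed the edgeR test, and 1 had an unadjusted p under 0.05. This was Kcnn4, the gene of the calcium-activated channel KCa3.1, with 2, 1 and 3 counts for WT 1 to WT 3 and 6, 3, 9, 12 and 3 counts for KO 2 to KO 6 (edgeR adjusted p = 0.219).

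Levels between genes were compared as CPM per kilobase of the longest annotated transcript. The highest was Kcnj14, the gene of the inward rectifier Kir2.4, at a mean of 259.6 CPM per kilobase, followed by Kcnab2 at 108. Next came Kcna5 (Kv1.5) at 33.8, Kcnj9 (the G-protein gated rectifier subunit GIRK3) at 28.3, Kcne2 at 27.9 and Kcnc1 at 24.6 CPM per kilobase. Kcnip4 (a KChIP subunit), Kcnma1 (the BK channel pore) and Kcnh2 (ERG1) lay at 19.7, 18.9 and 18.5. The counts of Kcnj14 carry a caution, since 35.57% of its 31-base words also occur in the pseudogene Gm5522.

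**Figure D1:**
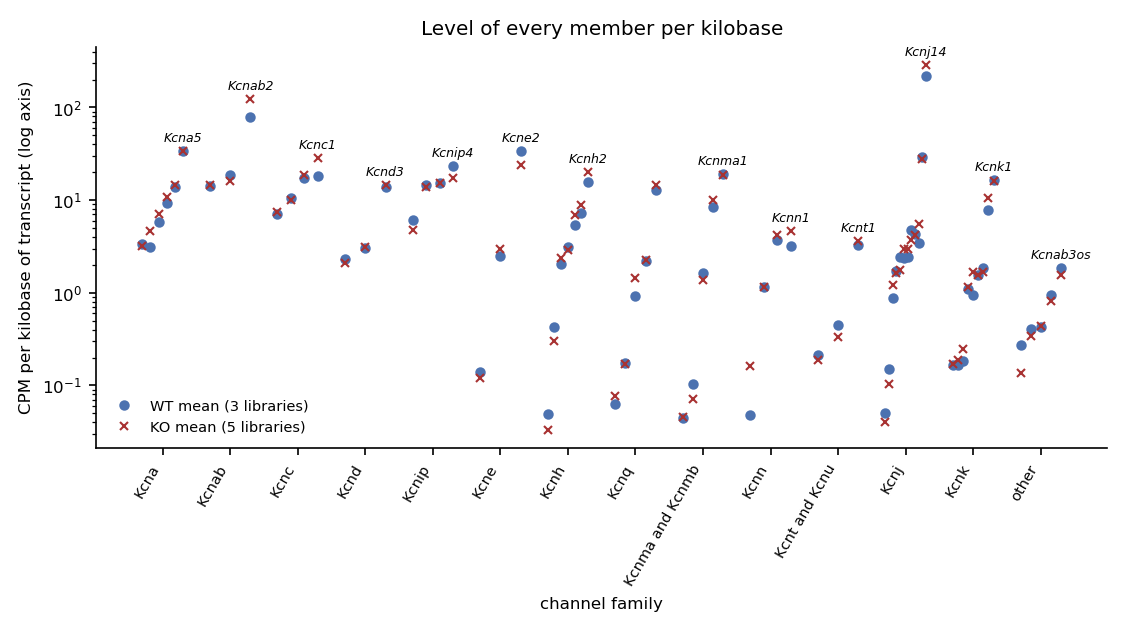
Mean level of the 73 potassium channel genes in CPM per kilobase of the longest transcript (log axis), by family, with circles for the mean of the 3 WT and crosses for the mean of the 5 KO libraries, and the highest gene of most families named. Kcnj14 (259.6) and Kcnab2 (108) lie above all others, and for most genes circle and cross lie close together.

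Over all 8 libraries 3 potassium channel genes rose in KO (Kcnc1, Kcnab2 and Kcnk3) and 1 fell (Kcne2), by 1.34- to 1.58-fold for the rises. Calls rest on the quasi-likelihood test of edgeR, with p-values adjusted by Benjamini and Hochberg over the 20167 genes tested and an adjusted p under 0.05. The 3 rises are 4.69% of the 64 genes, against 4.74% of all genes tested, and the 1 fall is 1.56%, against 2.84%. The potassium channels were therefore called at about the rate of any gene. Their log2 fold changes ran from -0.50 to 0.84 with a median of 0.04, against 0.00 for all genes, and 36 were positive and 28 negative. The level lay above that of every WT library in all 5 KO libraries for 7 of the 64 genes (10.9%), which holds for 10.8% of all genes, and below in all 5 for 2 (3.12%), against 10.1%. At an unadjusted p under 0.05 there were 17 (26.6%), against 27.3% of all genes. The 95% interval of the fold change stayed within 1.5-fold either way for 30 of the 64 genes (46.9%), against 40.4% of all genes, and within 2-fold for 56. For these genes a larger change is outside the interval, and for the other 8 it is not.

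Kcnc1 encodes Kv3.1, a channel that opens at strong depolarization and closes fast and is known from neurons that fire at high rates. It lies at chr7:46396497-46438704 on the plus strand of GRCm38 (ENSMUSG00000058975). WT 1 to WT 3 held 145, 129 and 151 CPM of it, whereas KO 2 to KO 6 held 215, 195, 224, 221 and 251 CPM. The groups did not overlap, and the lowest KO library was KO 3. WT averaged 142 ± 11.3 CPM (SD, n = 3) and KO 221 ± 19.997 CPM (SD, n = 5), a 1.56-fold rise, with a log2 fold change of 0.64 (SE 0.11) and an adjusted p of 0.0101 in edgeR's quasi-likelihood test. In KO 2 and KO 3 against WT the log2 fold change was 0.53 with an adjusted p of 0.0668, and in KO 4 to KO 6 against WT it was 0.72 with an adjusted p of 1.05e-05, both by edgeR. The call ended without WT 1 (log2 fold change 0.66, edgeR adjusted p = 0.0646) and without WT 2 (0.59, 0.0773). Over all genes, fits without 1 WT library called 87 to 137 higher and 44 to 62 lower, against 956 and 573 with all 8.

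Kcnab2 encodes Kvβ2, a cytoplasmic subunit of Kv1 channels with an oxidoreductase fold. The gene spans chr4:152390742-152477871 on the minus strand (ENSMUSG00000028931), and Gm16333 and Nphp4 overlap it on the opposite strand and Gm16334 on the same strand. WT 1 to WT 3 held 296, 303 and 331 CPM of it, whereas KO 2 to KO 6 held 601, 381, 451, 524 and 487 CPM. Every KO library lay above every WT library, and KO 2 and KO 3 were the highest and the lowest of the KO libraries. The mean rose 1.58-fold, from 310.1 ± 18.8 CPM (SD, n = 3) to 489 ± 81.9 CPM (SD, n = 5). On the log2 scale this fold change was 0.66 (SE 0.14), with an adjusted p of 0.0287 in edgeR's quasi-likelihood test. It was 0.66 in each set of KO libraries against WT, with an edgeR adjusted p of 0.134 for KO 2 and KO 3 and of 1.35e-05 for KO 4 to KO 6. Leaving out any of the 3 WT libraries, KO 4, KO 5 or KO 6 ended the call, with edgeR adjusted p-values from 0.0574 (without KO 6) to 0.136 (without WT 1). The log2 fold change of Kcnab2 in these fits was 0.62 to 0.71. Over all genes, fits without KO 4, KO 5 or KO 6 called 254 to 343 higher and 111 to 188 lower. Calls were thus lost throughout the table in these fits, which also holds for Kcnk3 and Kcne2 below. With an offset for the GC content of the transcripts in each library the log2 fold change was 0.45 and did not pass (edgeR adjusted p = 0.0726).

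Kcnk3 encodes TASK-1, an acid-sensitive tandem-pore channel that carries background current. It lies at chr5:30588170-30625271 on the plus strand (ENSMUSG00000049265), with Gm9899 on the opposite strand. WT 1 to WT 3 held 27.4, 30.0 and 32.8 CPM of it, whereas KO 2 to KO 6 held 45.2, 34.0, 40.4, 38.0 and 43.1 CPM. The groups did not overlap, but KO 3 and WT 3 were close. WT averaged 30.1 ± 2.73 CPM (SD, n = 3) and KO 40.2 ± 4.40 CPM (SD, n = 5), a 1.34-fold rise. The log2 fold change of 0.42 (SE 0.11) had an adjusted p of 0.0491 in edgeR's quasi-likelihood test, just under the threshold. It was 0.40 in KO 2 and KO 3 (edgeR adjusted p = 0.194) and 0.44 in KO 4 to KO 6 (0.000991). The call ended without any 1 of WT 1, WT 2, WT 3, KO 4, KO 5 or KO 6, with edgeR adjusted p-values from 0.0908 (without KO 5) to 0.203 (without WT 1), and with library size alone as the scaling (0.066) or no filter on low counts (0.0626). With the GC content offset the log2 fold change was 0.18, with an edgeR adjusted p of 0.334.

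Sums of cell type markers also moved with these 3 rises, but not every marker in them did. The 3 pericyte and smooth muscle markers summed to 81.7 to 89.7 CPM in WT and to 91.7 to 147 CPM in KO, with Pdgfrb called higher. Rgs5 was at 67.0 to 76.7 CPM in WT, 91.7 and 91.8 CPM in KO 2 and KO 3, and 69.8 to 73.5 CPM in KO 4 to KO 6. Acta2 lay within its WT range of 2.09 to 4.77 CPM in every KO library but KO 3 (33.6 CPM). The sum of the microglia markers also lay above that of every WT library in each KO library. Csf1r and Tmem119 were called higher there, while Cx3cr1 overlapped between the groups. P2ry12 was at 2.08 to 3.15 CPM in WT, 3.95 and 2.66 CPM in KO 2 and KO 3, and 2.04 to 2.07 CPM in KO 4 to KO 6. The part of these cells in the rises was not tested.

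Kcne2 was the gene that fell. It encodes a small membrane protein that joins Kv7 and ERG channels as an accessory subunit. It lies at chr16:92292389-92298129 on the plus strand (ENSMUSG00000039672). WT 1 to WT 3 held 55.2, 69.3 and 48.2 CPM of it, whereas KO 2 to KO 6 held 45.6, 40.7, 37.5, 44.4 and 36.0 CPM. All KO libraries lay below all WT libraries, and the WT libraries spread more widely than the KO libraries. WT averaged 57.6 ± 10.7 CPM (SD, n = 3) and KO 40.8 ± 4.17 CPM (SD, n = 5), with a log2 fold change of -0.50 (SE 0.12) and an adjusted p of 0.0414 in edgeR's quasi-likelihood test. In KO 2 and KO 3 against WT it was -0.42 (edgeR adjusted p = 0.204), and in KO 4 to KO 6 -0.54 (0.00303). Without WT 2, the highest library, the log2 fold change was -0.33 with an edgeR adjusted p of 0.201. The call also ended without WT 1 (0.135), WT 3 (0.0671), KO 4 (0.0958), KO 5 (0.0741) or KO 6 (0.0832), and with no filter on low counts (0.0561). With the GC content offset the log2 fold change was -0.40 (edgeR adjusted p = 0.0575). The sum of the cone markers moved with Kcne2, lower in all KO libraries than in all WT libraries. So did that of the 3 horizontal cell markers, at 100.8 to 106 CPM in WT and 65.1 to 97.0 CPM in KO, with Calb1 called lower. Calb1 made up most of that sum, and the other horizontal cell markers did not fall. Onecut1 was at 5.69 to 7.02 CPM in WT and 5.99 to 8.29 CPM in KO, and Lhx1 at 6.31 to 7.02 and 6.13 to 7.72 CPM. The part of these cells in the result was not tested.

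**Figure D2:**
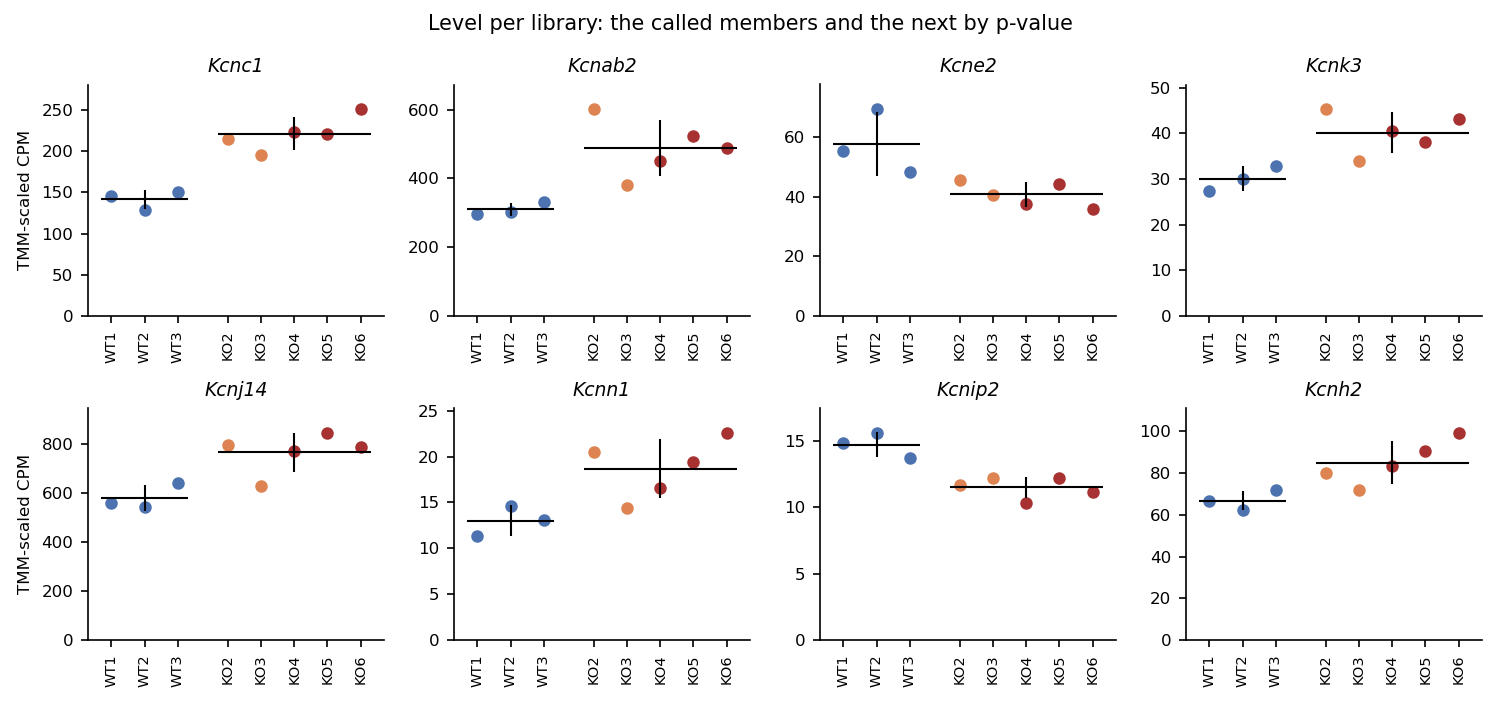
Level per library in TMM-scaled CPM (axes from 0) of the 4 called genes, top, and of the 4 genes with the next smallest p-values, bottom, with WT in blue, KO 2 and KO 3 in orange and KO 4 to KO 6 in red. Horizontal lines are group means and vertical lines their SD (n = 3 and n = 5). For Kcnc1, Kcnab2, Kcnk3, Kcne2, Kcnip2 and Kcnh2 no KO library lies within the WT range, while KO 3 lies among the WT libraries for Kcnj14 and Kcnn1.

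Next by p-value came 5 genes that did not pass. Kcnj14, the gene with the highest level per kilobase, was at 557, 541 and 642 CPM in WT 1 to WT 3 and at 796, 630.1, 772, 843 and 787 CPM in KO 2 to KO 6. Only KO 3 lay within the WT range, and the log2 fold change was 0.40 (SE 0.12, edgeR adjusted p = 0.0678). Kcnn1, the gene of the calcium-activated SK1 channel, was at 11.3, 14.7 and 13.1 CPM in WT and at 20.5, 14.4, 16.6, 19.4 and 22.5 CPM in KO 2 to KO 6, again with KO 3 among the WT libraries (log2 fold change 0.52, edgeR adjusted p = 0.0718). Kcnh2, the gene of the ERG1 channel, was at 66.6, 62.3 and 71.7 CPM in WT and at 80.05, 71.8, 83.5, 90.6 and 99.1 CPM in KO 2 to KO 6, with no overlap (log2 fold change 0.35, edgeR adjusted p = 0.0726). Kcna1, the gene of the axonal channel Kv1.1, was at 23.03, 23.04 and 24.6 CPM in WT and at 26.6 to 31.3 CPM in KO, with no overlap (log2 fold change 0.29, edgeR adjusted p = 0.078). Kcnip2, a KChIP subunit of Kv4 channels, was the one with a negative sign, at 13.7 to 15.6 CPM in WT and 10.3 to 12.2 CPM in KO, with no overlap (log2 fold change -0.35, edgeR adjusted p = 0.0723). Without KO 3 all 5 passed the edgeR test, with adjusted p-values from 0.00668 (Kcnj14) to 0.0434 (Kcnip2). In that fit of 7 libraries 11 of 64 potassium channel genes were called higher (17.2%, against 12.2% of all genes) and 3 lower (4.69%, against 7.85%). Leaving out a WT library instead gave edgeR adjusted p-values from 0.125 to 0.258 for the 5 genes. Such fits also called fewer genes over the whole table. With the GC content offset the log2 fold changes over 8 libraries were 0.21 for Kcnj14, 0.30 for Kcnn1, 0.08 for Kcnh2 and 0.18 for Kcna1 (edgeR adjusted p = 0.188 to 0.468), and -0.52 for Kcnip2 (0.0255). DESeq2's Wald test on all 8 libraries called 9 of 60 genes higher (15.0%, against 11.3% of all genes) and 2 lower (3.33%, against 6.18%), among them these 5 and the 4 above. With limma voom and quality weights 20 of 64 were called higher (31.2%, against 20.3%) and 7 lower (10.9%, against 20.6%).

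**Figure D3:**
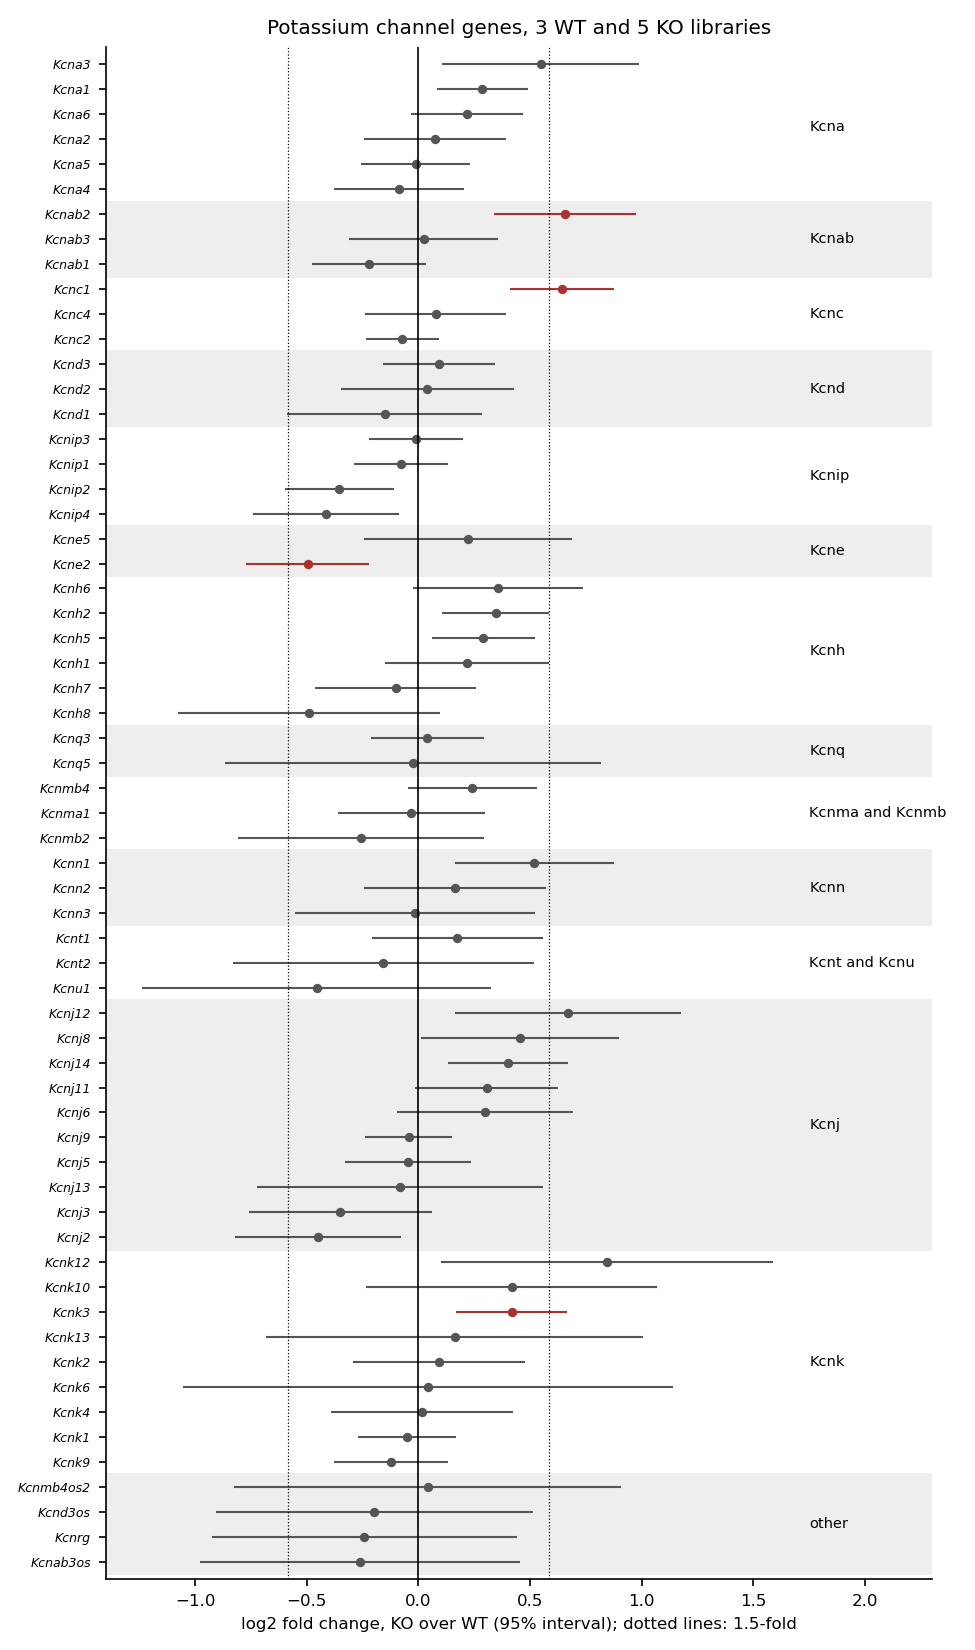
Log2 fold change, KO over WT, of 61 of the 64 tested potassium channel genes with its 95% interval (edgeR, 3 WT and 5 KO libraries), grouped by family, with called genes in red and dotted lines at a 1.5-fold change. Most points lie between the dotted lines, and the 4 red intervals (Kcnc1, Kcnab2, Kcnk3, Kcne2) do not reach 0. Neither do those of some genes not called, such as Kcnj14 and Kcnip2, as the intervals are not adjusted for the number of genes.

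Among the Kv pore subunits, the Kcna genes (Kv1) did not pass the test in any of 6 cases, with 2 at an unadjusted p under 0.05 and 1 called by DESeq2. Such counts in a family stand against 27.3% of all genes at an unadjusted p under 0.05, and 11.3% called higher and 6.18% lower by DESeq2. Kcna5, their highest per kilobase, was at 89.5, 94.985 and 107 CPM in WT 1 to WT 3 and at 115, 90.1, 85.1, 92.8 and 98.5 CPM in KO 2 to KO 6. The KO range enclosed the WT range, and the 95% interval of the log2 fold change ran from -0.25 to 0.23. Kcna2, the gene of Kv1.2, had a mean of 160.5 ± 21.4 CPM (SD, n = 3) in WT and 169 ± 29.0 CPM (SD, n = 5) in KO. Kcna3 (Kv1.3) had the highest log2 fold change of the family at 0.55, with an edgeR adjusted p of 0.11 at a mean of 5.98 CPM in WT.

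The Kcnc genes (Kv3), whose products can form mixed tetramers, numbered 4, of which Kcnc1 passed. The log2 fold changes of Kcnc4 and Kcnc2 were 0.08 and -0.07. The interval of Kcnc2 (Kv3.2), at 53.5 ± 0.657 CPM (SD, n = 3) in WT and 50.9 ± 2.80 CPM (SD, n = 5) in KO, ran from -0.24 to 0.09 and lay wholly below that of Kcnc1, from 0.41 to 0.88. The difference between the 2 genes was not tested.

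The Kcnd genes (Kv4, the A-type current) gave log2 fold changes from -0.15 to 0.09, with 0 of 3 called by edgeR or DESeq2 and 0 at an unadjusted p under 0.05. Kcnd3, the highest, was at 95.5, 96.4 and 103 CPM in WT 1 to WT 3 and at 131, 103, 95.05, 100.4 and 94.1 CPM in KO 2 to KO 6. KO 2 was above the WT range, KO 3 lay at its upper end, just past WT 3, and KO 4 and KO 6 lay below WT 1. The KChIP genes, whose products bind Kv4 channels, had negative signs in all 4 cases, from -0.41 for Kcnip4 to -0.01 for Kcnip3, whose sign turned in KO 2 and KO 3 against WT (0.10). Of the 4, Kcnip4 and Kcnip2 were at an unadjusted p under 0.05, as were 27.3% of all genes, and the signs of so few genes were not tested as a group. Kcnip4 was at 53.2, 56.4 and 57.7 CPM in WT 1 to WT 3, with 48.1 CPM for KO 2 and 53.9 CPM for KO 3, and at 36.3, 37.9 and 33.2 CPM in KO 4 to KO 6. The lower levels were those of the second KO set. Kcnip3, which encodes the calcium sensor DREAM, known also as a transcriptional repressor, was at 41.9 ± 2.69 CPM (SD, n = 3) in WT and 41.5 ± 3.91 CPM (SD, n = 5) in KO.

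The Kcnh genes (EAG, ERG and ELK channels) held 6 tested genes. Besides Kcnh2, Kcnh5 lay above WT in all KO libraries, at 25.5 to 32.1 CPM in WT and 33.3 to 39.3 CPM in KO (log2 fold change 0.29, edgeR adjusted p = 0.105). Kcnh1, the gene of the EAG1 channel, was at 15.95, 14.3 and 13.9 CPM in WT 1 to WT 3 and at 16.7, 23.7, 15.1, 15.0 and 15.1 CPM in KO 2 to KO 6. Only KO 3, the library with the lens markers, stood out, and the part of lens tissue in this value was not tested.

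The calcium-activated channels are led by Kcnma1, the pore of the BK channel, at 225, 219 and 252 CPM in WT 1 to WT 3, 296 and 244 CPM in KO 2 and KO 3, and 199.8, 188 and 208 CPM in KO 4 to KO 6. KO 2 lay above the WT range, KO 3 within it and KO 4 to KO 6 below it, and the log2 fold change over 8 libraries was -0.03 (95% interval -0.36 to 0.30). Of the SK genes, Kcnn2 and Kcnn3 had log2 fold changes of 0.16 and -0.02, beside 0.52 for Kcnn1. Kcnt1, the sodium-activated Slack channel, was at 20.6, 16.4 and 20.3 CPM in WT 1 to WT 3 and at 15.0, 19.5, 25.7, 23.6 and 24.0 CPM in KO 2 to KO 6, with the 3 high values in KO 4 to KO 6.

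Of 12 Kcnj genes (inward rectifiers) 10 were tested and 4 had an unadjusted p under 0.05, none of which passed after adjustment, while DESeq2 called 2 higher. Over all genes 27.3% were at that unadjusted p and 11.3% were called higher by DESeq2. Besides Kcnj14 these were Kcnj12 (Kir2.2), Kcnj2 (Kir2.1) and Kcnj8 (Kir6.1). Kcnj12 was at 8.004 to 9.46 CPM in WT and at 10.9, 20.8, 9.80, 13.2 and 12.9 CPM in KO 2 to KO 6. It did not overlap, with KO 3 by far the highest, and had a log2 fold change of 0.67 (edgeR adjusted p = 0.0925). Kcnj2 had the opposite sign at -0.45 (edgeR adjusted p = 0.114), so members of the Kir2 group did not share a sign. Kcnj13, the Kir7.1 channel of the pigment epithelium, was at 2.52, 1.83 and 2.26 CPM in WT 1 to WT 3 and at 2.04, 3.38, 1.92, 1.43 and 1.64 CPM in KO 2 to KO 6. Of its 31-base words 44.75% are shared with Gigyf2, which overlaps it on the other strand, so its low count is uncertain. Pigment epithelium markers summed to 58.8 to 74.6 CPM in WT and 72.3 to 119 CPM in KO. None of these 7 markers was called, and they did not move together. Rgr lay at 17.9 to 23.4 CPM in WT and 25.5 to 45.9 CPM in KO. Rpe65 lay at 7.06 to 9.76 CPM in WT and 3.68 to 10.1 CPM in KO.

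The tandem-pore genes other than Kcnk3 did not pass. Kcnk1 (TWIK-1), the highest, was at 34.2, 40.5 and 36.9 CPM in WT 1 to WT 3 and at 39.2, 33.3, 33.1, 34.7 and 39.1 CPM in KO 2 to KO 6. The groups overlapped in part, with KO 3 and KO 4 below all WT libraries and WT 2 above all KO libraries. Kcnk9, which encodes TASK-3, a channel that can pair with TASK-1, had a log2 fold change of -0.12 with an interval from -0.38 to 0.13, against 0.17 to 0.67 for Kcnk3. Kcnk12 had the highest log2 fold change of all, 0.84 (edgeR adjusted p = 0.136), at a mean of only 1.86 CPM in WT and 3.35 CPM in KO. The opposite-strand transcripts and Kcnrg, a soluble regulator of Kv channels, lay at about 1 CPM or less. Kcnab3os, the highest of them, was at 1.21, 0.940 and 1.02 CPM in WT 1 to WT 3 and at 1.09, 0.999, 0.837, 1.02 and 0.456 CPM in KO 2 to KO 6. It shares its locus with Kcnab3, and counting by strand is not stated in the sources used here.

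With the KO libraries of each set compared with WT, the counts differed widely. In KO 2 and KO 3 against the 3 WT libraries no potassium channel gene passed the edgeR test, with 14 of 64 at an unadjusted p under 0.05 (21.9%, against 19.0% of all genes). Of all genes tested 0.624% were called higher and 0.267% lower there. The smallest adjusted p was that of Kcnc1, 0.0668. KO 2 and KO 3 also differed from each other (chi-square per degree of freedom 96). The part of this spread in the lack of potassium channel calls was not tested. In KO 4 to KO 6 against the same WT libraries, 22 of 64 genes were higher (34.4%) and 8 lower (12.5%), where 22.3% and 20.5% of all genes were called. Both comparisons use the same WT libraries. KO 4 to KO 6 hold no WT library of their own, so within them the genotype and whatever else sets these libraries apart cannot be told apart.

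The genes called in KO 4 to KO 6 came from most families. Among the higher were 3 Kcna, 3 Kcnh and 4 Kcnj genes, 2 each of Kcnab, Kcnc, Kcnk and Kcnn, Kcnmb4 and Kcnt1. Lower were Kcnip4, Kcnip2, Kcnj3, Kcnj2, Kcnab1, Kcne2, Kcnh7 and Kcnma1. The log2 fold changes of the higher genes ran up to 1.06 for Kcnk12, and those of the lower genes down to -0.63 for Kcnip4 and Kcnj2 (edgeR adjusted p = 2.81e-05 and 0.00173). Kcnj3, which encodes the G-protein gated rectifier subunit GIRK1, fell by 0.61 on the log2 scale (edgeR adjusted p = 9.6e-05). Of the 31-base words of Kcnj3 30.22% also occur in Gm26794 on the opposite strand, and 33.37% of those of Kcnmb4 in Kcnmb4os2, so the counts of both are uncertain.

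The called genes differed in the base composition of their transcripts. The 22 higher genes had a median GC content of 56.9% and the 8 lower genes one of 43.9%, against 51.2% for the 34 genes not called, 52.7% for all 64 and 49.7% for all genes tested. Spearman's rho between GC content and the log2 fold change over the 64 genes, a description over genes that share the libraries, was 0.718 in KO 4 to KO 6, 0.64 over 8 libraries and 0.239 in KO 2 and KO 3. Over all genes it was 0.54, 0.463 and 0.166. With an offset for GC content in each library, rho in KO 4 to KO 6 was 0.197, and 5 genes were called higher (7.81%, against 16.4% of all genes) and 8 lower (12.5%, against 15.5%). Higher by that fit were Kcnc1 (0.45), Kcnab2 (0.36), Kcnh6 (0.27), Kcnj6 (0.41) and Kcnj14 (0.20), as log2 fold changes with edgeR adjusted p-values from 0.000348 to 0.0377. Among the 8 lower were Kcnip2 (-0.62), Kcne2 (-0.39), Kcnj3 (-0.36), Kcnip3 (-0.32), Kcnj9 (-0.32), Kcna5 (-0.27) and Kcnip4 (-0.24). The same offset over all 8 libraries left 1 gene higher (background 3.94%) and 1 lower (background 2.95%). Kcnc1 was the higher one (log2 fold change 0.45, edgeR adjusted p = 0.0125), and Kcnip2 the lower one (-0.52, 0.0255). With it Kcnab2, Kcne2 and Kcnk3 did not pass, at the values given with each gene.

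**Figure D4:**
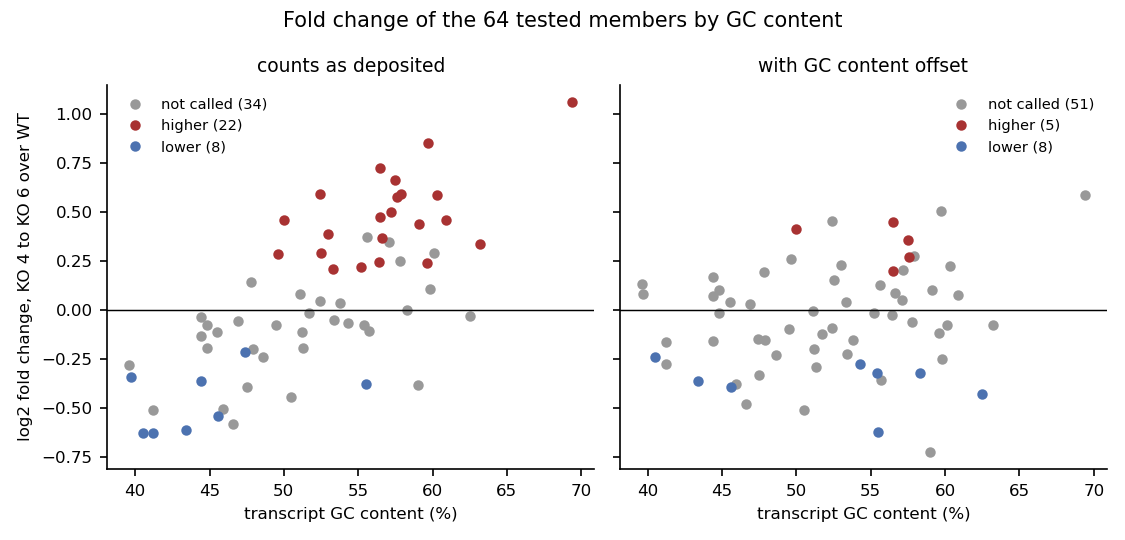
Log2 fold change of the 64 tested potassium channel genes in KO 4 to KO 6 over WT (vertical axis) against the GC content of their transcripts in percent (horizontal axis), from the counts as deposited, left, and with a GC content offset, right. Red points were called higher (22 and 5), blue points lower (8 and 8) and grey points were not called. On the left the points climb with GC content (rho 0.718), and on the right they spread nearly level (0.197).

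The 2 sets of KO libraries were also compared directly, a comparison within the KO label chosen after the data were seen. In KO 4 to KO 6, 4 of 64 genes were higher than in KO 2 and KO 3 and 5 were lower, where 5.95% and 7.93% of all genes were called. Higher were Kcnh6, the ERG2 channel, with 17.5 CPM for KO 2, 18.1 CPM for KO 3 and 25.9, 27.6 and 26.8 CPM for KO 4 to KO 6 (log2 difference 0.59, edgeR adjusted p = 0.014), and Kcnn2, the SK2 channel, at 10.8 and 12.5 CPM against 17.8, 17.3 and 18.4 CPM. The WT libraries lay at 16.6 to 19.1 CPM for Kcnh6 and at 12.9 to 14.8 CPM for Kcnn2. Kcnt1 and Kcnab3 were the other two, with log2 differences of 0.50 and 0.52. Lower were Kcnj3, at 27.7 and 21.3 CPM against 16.6, 15.9 and 15.7 CPM (log2 difference -0.61, edgeR adjusted p = 0.0242), Kcnh7, the ERG3 channel (-0.56), Kcnip4 (-0.51), Kcnma1 (-0.44) and Kcnab1, the Kvβ1 subunit (-0.35). For Kcnh6, Kcnh7, Kcnma1, Kcnt1, Kcnab3, Kcnn2 and Kcnc4 the log2 fold change against WT had opposite signs in the 2 sets, and each passed against WT in KO 4 to KO 6. With the GC content offset only Kcnh6 of these 7 still passed there (log2 fold change 0.27, edgeR adjusted p = 0.0181), and Kcnh7 (0.08), Kcnc4 (-0.12) and Kcnab3 (-0.02) turned sign. Of the 7 genes Kcnc4 did not differ between the sets by the test (log2 difference 0.41, edgeR adjusted p = 0.0575). Of the 4 genes called over all 8 libraries, the log2 difference between the sets was 0.18 for Kcnc1, -0.01 for Kcnab2, -0.13 for Kcne2 and 0.03 for Kcnk3, with edgeR adjusted p-values of 0.313 to 0.983.

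**Figure D5:**
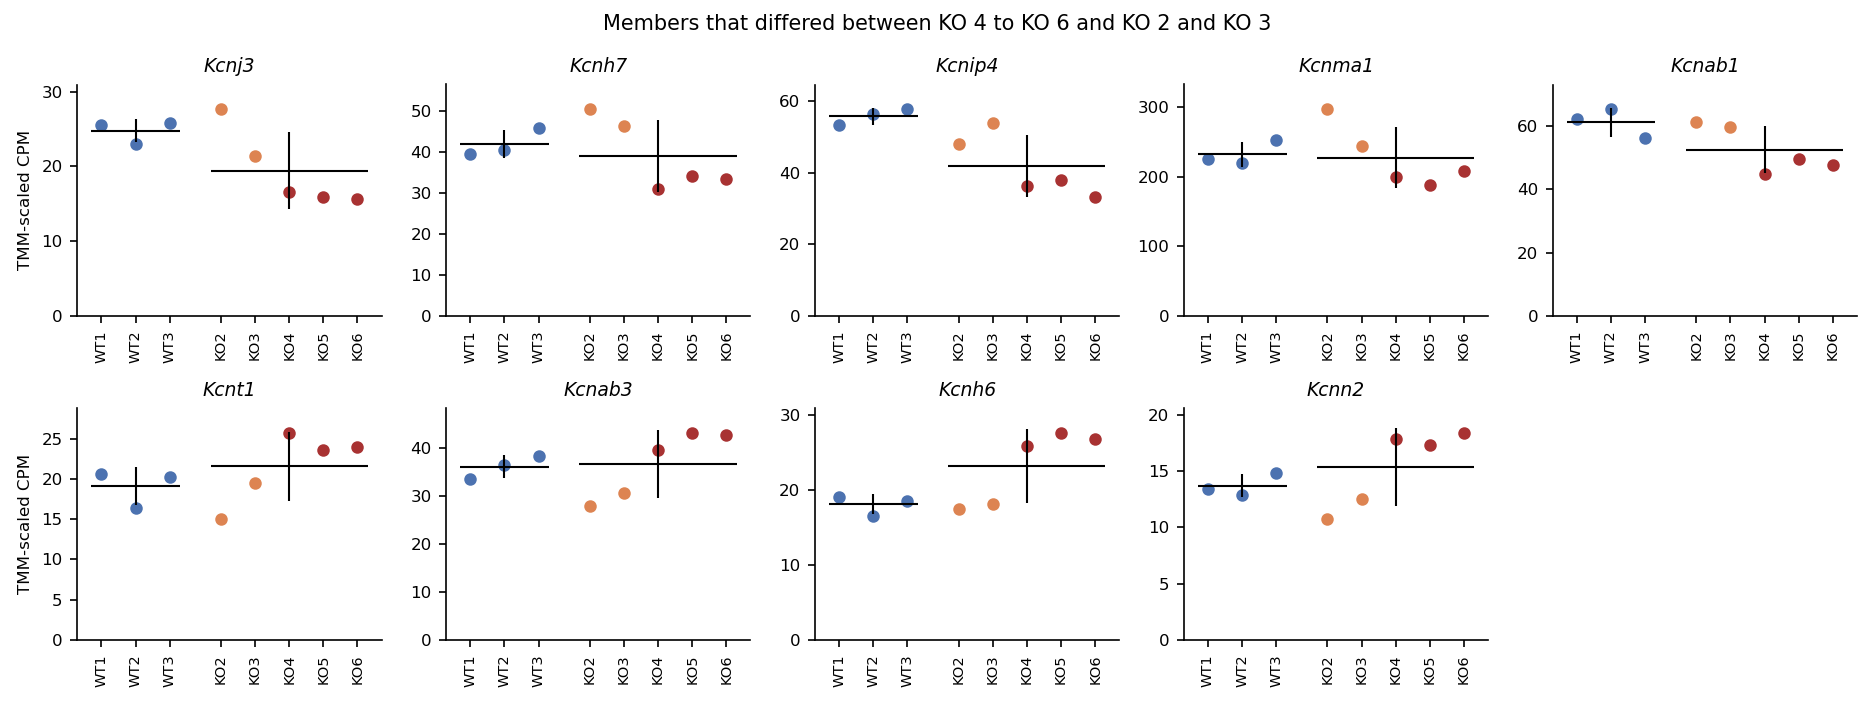
Level per library in TMM-scaled CPM (axes from 0) of the 9 potassium channel genes called between KO 4 to KO 6 (red) and KO 2 and KO 3 (orange), with WT in blue, horizontal lines at the means of all 3 WT and all 5 KO libraries and vertical lines for their SD. The top row holds the 5 lower genes and the bottom row the 4 higher genes. Both orange points lie within the WT range for Kcnab1 and Kcnh6, and neither does for Kcnj3, Kcnh7, Kcnn2 and Kcnab3. In the other panels only KO 3 does.

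Partner proteins that bind or anchor potassium channels were counted in the same fit over 8 libraries. Of 18 listed genes 17 were in the table and 16 were tested, 7 had an unadjusted p under 0.05, where 27.3% of all genes did, and 2 passed, both higher in KO (12.5%, against 4.74% of all genes). DESeq2's Wald test called 7 of them higher and 0 lower (all genes 11.3% and 6.18%), and limma voom called 8 higher and 2 lower (20.3% and 20.6%). The genes were listed with earlier results of these data known, and nothing is read from these shares. Their median log2 fold change was 0.20, against 0.00 for all genes. Ank2, which encodes the adaptor ankyrin-B, had a log2 fold change of 0.42 (SE 0.10), from a mean of 465 to one of 621 CPM (edgeR adjusted p = 0.0318). Sptbn4, which encodes the spectrin βIV of axon initial segments, had 0.69 (SE 0.17), from 43.5 to 70.3 CPM (edgeR adjusted p = 0.041). In KO 2 and KO 3 against WT their log2 fold changes were 0.36 and 0.32, with edgeR adjusted p-values of 0.184 and 0.205. Ank3, the ankyrin-G that anchors Kv7 channels, and Dpp6, a Kv4 partner, came next with 0.43 and 0.33 (edgeR adjusted p = 0.0649 and 0.0603). The sulfonylurea receptors Abcc8 and Abcc9, partners of Kcnj11 and Kcnj8, had 0.25 and 0.42 (0.338 and 0.0885).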

How the data were processed

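The authors deposited 1 table of estimated counts per gene, held as whole numbers, for 26824 mouse genes and 8 libraries. Per the submitters' processing notes, Trim Galore, Salmon 1.10.2, DESeq2 and the build GRCm38 were used, with no role or order given. Per the labels' protocols, RNA was isolated with an RNeasy kit and libraries were made by Novogene with Illumina-compatible protocols. The lowest total of a gene over the libraries was 16.

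From these counts, which needed no rounding, edgeR 4.0.16 in R 4.3.3 gave TMM-scaled CPM and the quasi-likelihood test (glmQLFit, glmQLFTest) after filterByExpr, over all 20167 genes, with Benjamini-Hochberg adjustment and calls at an adjusted p under 0.05. Standard errors came from the log2 fold change and the F statistic. The labels give 1 mouse per library, so p-values measure the spread between mice of a label. No pair of libraries of a group agreed within sampling noise (chi-square per degree of freedom 5.38 to 100). Positions, transcript lengths, GC content and shared 31-base words came from GENCODE M21 (GRCm38), which held all 73 genes, and promoters from RefSeq. The tests were checked on simulated counts. The Wilson intervals of shares and the floor of 3 counts cover counting error only, while the intervals of fold changes cover the spread between mice.

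The members, the lists and the alternatives were chosen with earlier results of these data known, among them that KO 4 to KO 6 stand apart. Genes were named by rule, as every called gene, the highest per kilobase of each family, those with a known retinal role, the 5 with the next smallest p, and those called in 1 KO set with another sign in the other. Kcna2, Kcna3, Kcnh5, Kcnj2, Kcnj8, Kcnj9, Kcnj12, Kcnk9, Kcnk12, Kcnn4 and genes called between or in the sets of KO libraries were named outside it, after their values were seen. A few genes are not named here. Alternatives were DESeq2 1.42.0 (size factors and Wald test), limma voom 3.58.1 with quality weights, other filters and scalings, offsets for GC content or length, and fits without single libraries or pairs of KO libraries. Both groups have a replicate 2 and a replicate 3, but no label says that these numbers pair mice.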

Additional observations from a re-analysis of the deposited data

Results flagged for a closer look

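In the 64 tested potassium channel genes, the KO libraries were examined for a library whose gap to its neighbour took more than 0.71 of the group's range, the 95% limit for 5 samples. This held for 4 of 64 values, where chance gives about 3.2. Kcnh1 was at 23.7 CPM in KO 3, with 16.7 CPM in the next library. Kcnd2, a Kv4 subunit, was at 22.96 CPM in KO 2, with 15.2 CPM next. Kcnd3 was at 131 CPM in KO 2, with 103 CPM next. Kcnk10, the tandem-pore channel TREK-2, was at 2.87 CPM in KO 2, with 1.76 CPM next. All 4 were high values of KO 2 or KO 3.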

How the results depend on the processing

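Of the 3 genes called higher and 1 called lower, DESeq2's size factors and the filter of 1 CPM in 3 libraries gave the same counts. DESeq2's Wald test gave 9 higher and 2 lower, limma voom 20 and 7, KO 2 and KO 3 against WT 0 and 0, KO 4 to KO 6 against WT 22 and 8, and the GC content offset 1 and 1. Over all genes these fits called, in order, 11.3% and 6.18%, 20.3% and 20.6%, 0.624% and 0.267%, 22.3% and 20.5%, and 3.94% and 2.95%. The length offset gave 2 lower and the absence of a filter 0 lower, with 2 higher in the latter and with library size alone. Over all genes the length offset gave 791 higher and 662 lower, no filter 696 and 398, and library size alone 566 and 787. The main fit gave 956 and 573 over all genes. Fits without 1 library or 2 KO libraries ranged from 0 to 22 higher and 0 to 8 lower. Over all genes the same fits ranged from 82 to 4379 higher and from 36 to 4037 lower. Without 1 of the 8 libraries, Kcnc1 was called in 6 fits and Kcnab2, Kcne2 and Kcnk3 in 2 each, those without KO 2 and without KO 3. Without pairs of KO libraries they were called in 7, 4, 1 and 4 of 10 fits. Over all 31 alternatives none of the 4 changed sign. In WT 2, WT 3, KO 2 and KO 3, with the replicate number as a block, 0 potassium channel genes passed higher or lower, nor did any without it. Over all genes the block gave 38 higher and 14 lower, against 12 and 2 without it. Deviations of same-numbered libraries correlated at -0.19, and the crossed pairing, added after the data were seen, gave 340 and 187, with 0 and 0 potassium channel genes. The cause of these differences was not tested. For the named genes, 576 of 806 values kept direction and side of the threshold, 62 newly passed it, 66 no longer passed, and 102 turned sign with a call in neither fit. Depth limits what can be seen of the 9 genes with low counts. Of the 8 tested genes whose interval reached past 2-fold, Kcnj12 had the highest level, at a mean of 8.50 CPM in WT.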
